A study of Tachysurus vachellii and Tachysurus fulvidraco x Tachysurus vachelli and Tachysurus fulvidraco with 9 samples.

Results

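The comparison described here sets the liver miRNAs of the hybrid catfish Huangyou-1 against the level midway between its parents, P. vachelli and P. fulvidraco. All 9 small RNA libraries of the series entered it, 3 from the hybrid, 3 from P. vachelli and 3 from P. fulvidraco. The members are the distinct miRNA sequences with a normalized count of 10 or more in at least 3 libraries. They number 278 of the 728 distinct sequences in the deposited table, and they carried between 99.98% and 99.99% of the summed values of each library. The series asks which miRNAs accompany heterosis, the superior growth of a hybrid over its parents.

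All groups were livers of untreated juvenile fish reared alike at 28 °C. The hybrid came from P. fulvidraco females crossed with P. vachelli males, so P. vachelli is its paternal and P. fulvidraco its maternal species. The 2 parental groups were pure crosses within each species. Each line had 600 juveniles in 3 aquaria of 200 fish. Nothing in the labels says if replicates are fish, pools or aquaria, so the p-values below measure only the spread between these libraries, which may be technical. Reads in the deposited entries came to 5737722 to 6469431 for the hybrid, 7076588 to 8578653 for P. vachelli and 6336129 to 7425051 for P. fulvidraco. They were estimated from the step between low values, and reads that the authors filtered out are not in them. Summed normalized counts differed between the groups too, at 6230587 to 6635109 for the hybrid, 7704357 to 8395613 for P. vachelli and 6260802 to 6857288 for P. fulvidraco. The liver label was checked against ssa-miR-122-5p, the defining miRNA of hepatocytes, which was the most abundant sequence and took 27.9% to 33.1% of the summed values of a library.

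A miRNA is a short RNA that guides Argonaute proteins to messenger RNAs, mainly through its seed, and lowers their stability and translation. A hybrid carries 1 copy of each parental genome. If each copy keeps its parental output, the hybrid lies at the arithmetic mean of its parents, the additive level, whereas effects that multiply place it at the geometric mean. Both were therefore used as the mid-parent. On the log2 scale the hybrid mean of log2(value + 1) was set against the mean of the 2 parental means, which is the geometric mid-parent. On the linear scale the hybrid mean was set against the arithmetic mid-parent and is given as a percentage of it. A sequence was called where limma gave a Benjamini-Hochberg adjusted p under 0.05, and called on both scales where both tests passed with the same sign.

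The sequences on which the results turn are printed 5′ to 3′ with the seed, bases 2 to 8, in capitals, and with T for U as deposited. Those of the miR-146 family show that the guide forms share the seed GAGAACT and differ only towards the 3′ end, with cgr-miR-146b-5p_R-4 being the first 19 bases of ccr-miR-146a.
ccr-miR-146a: tGAGAACTgaattccatagatgg
cgr-miR-146b-5p_R-4: tGAGAACTgaattccatag
dre-miR-146b_R+1: tGAGAACTgaattccaagggtgt
ssa-miR-146a-3p_R-1_2ss9GA20CT: aTCTATGGactcagttcttttg
dre-miR-204-5p: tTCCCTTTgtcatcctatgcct
dre-miR-142a-3p_R-1: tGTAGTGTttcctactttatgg
dre-mir-451-p3: tTTAGTAAtggtaagggttct
aca-miR-451-3p_L+2R+1: tTTAGTAAtggtaagggttctc

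The let-7 forms called on both scales share the seed GAGGTAG, and the guide strands of miR-221 and miR-222 share GCTACAT. The sequence named ssa-miR-221-3p_R-1_1ss5AG has another seed and is the partner strand from the other arm of the hairpin.
ssa-let-7a-5p: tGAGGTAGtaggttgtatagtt
ssa-let-7a-5p_2ss12GA16TA: tGAGGTAGtagattgaatagtt
ssa-let-7a-5p_1ss12GT: tGAGGTAGtagtttgtatagtt
tni-let-7i: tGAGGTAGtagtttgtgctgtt
ccr-let-7j: tGAGGTAGttgtttgtacagtt
bta-miR-221: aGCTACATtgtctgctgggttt
dre-miR-222a-3p_R-1: aGCTACATctggctactgggtct
ssa-miR-221-3p_R-1_1ss5AG: aCCTGGCAtacaatgtagattt
dre-miR-222a-5p: tGCTCAGTagtcagtgtagatcc
ola-miR-210-5p_R+2_1ss20TC: aGCCACTGactaacgcacactg
ssa-miR-126-3p: tCGTACCGtgagtaataatgca

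Further sequences have no family name. They are the authors' predicted candidates, named PC, and are shown because they are nearly or wholly missing from 1 parent.
PC-5p-555_7718: aGGAAAGAgtggacaatagca
PC-5p-3257_591: tTTTAATGactgcaaactgtgc
PC-5p-17897_142: tCTAATAAacttgcaactcagt
PC-5p-30865_77: tAGCAGAAgccacacctaagtc

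Most liver miRNAs of the hybrid were not called on either scale, and those called on both were divided, as deposited, between a smaller group above the mid-parent and a larger group below it. Of the 278 sequences, 27 were called on both scales, or 9.71%. The hybrid was above both mid-parents in 7 of them (2.52%) and below both in 20 (7.19%). The 7 were forms of miR-146, miR-142, miR-184, miR-204 and miR-451. The 20 belonged to let-7, miR-221, miR-222, miR-126, miR-210, miR-122, miR-192, miR-26, miR-27, miR-103, miR-30, miR-92, miR-31 and miR-202. These are 19 of the 124 families tested, 5 above and 14 below, where any called member counts its family. The miR-31 and miR-202 sequences would not have entered without their P. vachelli libraries and are described below with no test. Without the miR-202 sequence, 19 sequences (6.83%) in 13 families were called below. No family had calls in both directions, and 4 of the 19 had 2 or more calls. In miR-30 1 of 7 tested sequences was called, in miR-126 1 of 5, in miR-122 and miR-27 1 of 4 each, and in miR-210 1 of 3. The median log2 departure of all tested members was positive in miR-26 and miR-103, at 0.23 and 0.05. It was negative in the other families listed as below. The balance rested on single choices, being 17 above and 13 below without hybrid replicate 3 (16 of them among the 27) and 4 above and 2 below without hybrid replicate 2. It was 6 above and 7 below without the trended prior, and 6 above and 5 below when a 1.5-fold departure was required.

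The choice of scale decided many of the calls. On the log2 scale 52 sequences were called, 28 above (10.1%) and 24 below (8.63%). On the linear scale 28 were called, 7 above (2.52%) and 21 below (7.55%). All 7 sequences above the arithmetic mid-parent were also called on the log2 scale, whereas 21 sequences were above on the log2 scale alone. Only tni-miR-22a was called on the linear scale alone. No sequence was called in opposite directions. Over all 278 sequences the median departure was 0.06 on the log2 scale and -2.17% on the linear scale.

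**Figure D1:**
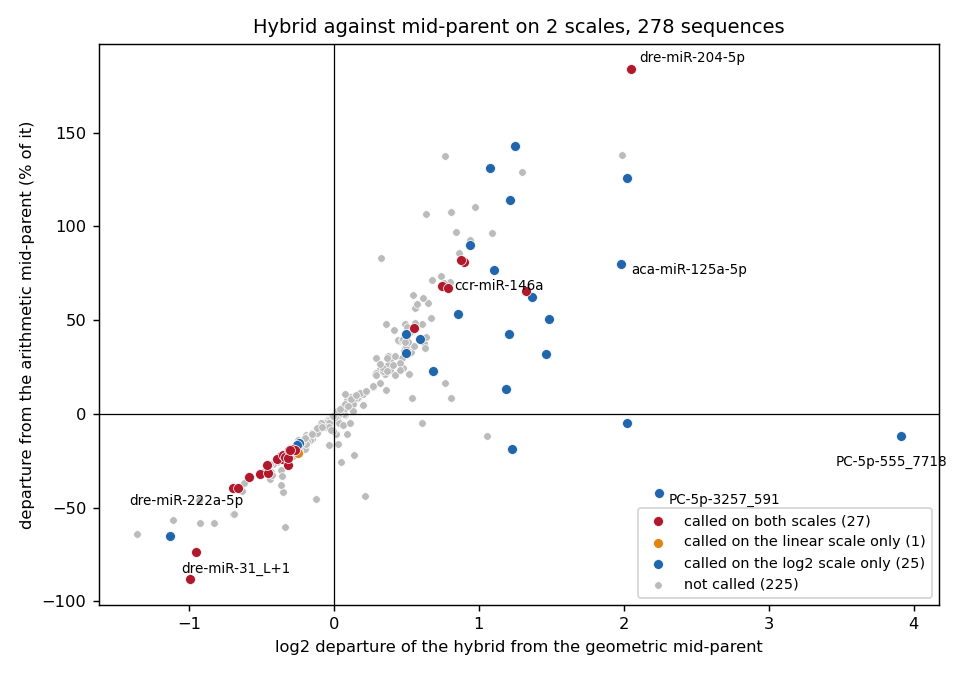
Departure of the hybrid from the geometric mid-parent (log2, horizontal axis) against its departure from the arithmetic mid-parent (percent of it, vertical axis), 1 point for each of 278 sequences, coloured by the scale on which it was called. The 27 sequences called on both scales lie in the upper right and lower left, while PC-5p-555_7718 lies at 3.91 on the log2 scale and -11.7% on the linear scale.

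The geometric and arithmetic mid-parents part where the parents differ. The gap between them had a median of 0.06 on the log2 scale, exceeded 0.5 in 27 sequences and reached 4.09. It had a median of 0.40 among sequences called on the log2 scale only and 0.04 among those called on both. In 20 sequences the hybrid mean lay between the 2 mid-parents, so that the sign itself depended on the scale.

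**Figure D2:**
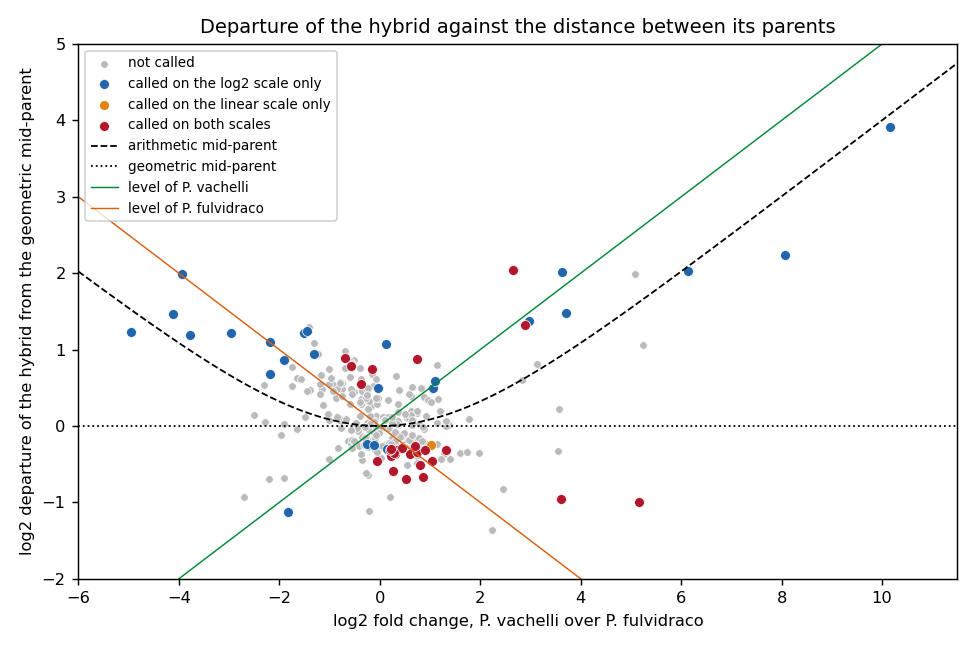
Departure of the hybrid from the geometric mid-parent (log2, vertical axis) against the log2 fold change of P. vachelli over P. fulvidraco (horizontal axis), 1 point for each of 278 sequences. The dashed curve is the arithmetic mid-parent and the coloured lines are the levels of the parents, and log2-only calls above the dotted line lie mainly where the parents are far apart.

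Departing on both scales did not usually mean differing from both parents by test, though a failed test does not show equality. By group mean, the hybrid was above both parents in 6 of the 7 called above. It was below both parents in 13 of the 20 called below. Tested against each parent on the log2 scale, 97 sequences differed between hybrid and P. vachelli (34.9%) and 54 between hybrid and P. fulvidraco (19.4%). Over all sequences 4 were above both parents by both tests (1.44%) and 3 were below both (1.08%). Of the 7 called above on both scales, 3 were above both parents, namely ccr-miR-146a, ssa-miR-146a-3p_R-1_2ss9GA20CT and dre-miR-204-5p. Of the 20 called below, 3 were below both parents, namely ssa-let-7a-5p_2ss12GA16TA, tni-let-7i and ola-miR-210-5p_R+2_1ss20TC. A further 16 of the 20 differed from P. vachelli only and 1 lay between the parents and apart from both.

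By library, the 3 hybrid values lay outside the range of all 6 parental libraries in 21 of 278 sequences, 8 above and 13 below (7.55%). Among sequences called on both scales this held for 6 of 7 above and 9 of 20 below. In 19 of the 20 called below the P. vachelli mean was above the P. fulvidraco mean, against 133 of all 278. A hybrid below the geometric mid-parent is by construction nearer to the lower parent on the log2 scale. That the hybrid was nearer to P. fulvidraco in 19 of these 20 is therefore no separate result.

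The strongest set above the mid-parent came from miR-146, which in mammals restrains innate immune signalling by repressing adaptor proteins of the Toll-like receptor pathway. ccr-miR-146a had normalized counts of 213603, 259127 and 266635 in the hybrid libraries, 150379, 143775 and 122669 in P. vachelli and 146243, 153099 and 162939 in P. fulvidraco. Every hybrid library stood above every parental library, while the parental ranges overlapped. The hybrid mean was 246455 ± 28697, against 138941 ± 14474 for P. vachelli and 154094 ± 8393 for P. fulvidraco (SD, n = 3 each). The departure was 0.75 ± 0.09 (SE) on the log2 scale (limma, adjusted p = 0.000772) and 68.2% ± 8.39 on the linear scale (limma, adjusted p = 0.00215). It was 0.83 above P. vachelli (limma, adjusted p = 0.000356) and 0.67 above P. fulvidraco (limma, adjusted p = 0.00277) on the log2 scale. ccr-miR-146a was above both parents by both tests under each of 20 alternative settings, which were 9 left-out libraries and 11 other choices. The sums by family and arm and the 1.5-fold minimum are not among the 20. In a whole liver, a change in the number of cells of a type and a change in the RNA per cell cannot be told apart, here and in what follows.

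The partner strand of the same hairpin moved with it. ssa-miR-146a-3p_R-1_2ss9GA20CT had 266, 313 and 317 in the hybrid, 102, 133 and 145 in P. vachelli and 205, 207 and 198 in P. fulvidraco. All 3 hybrid libraries were highest, P. vachelli was lowest, and no groups overlapped. Its departure was 0.90 ± 0.14 on the log2 scale (limma, adjusted p = 0.00326) and 81.2% ± 11.7 on the linear scale (limma, adjusted p = 0.00465). Its difference from P. fulvidraco, 0.55 on the log2 scale (limma, adjusted p = 0.0412), was the weaker of its parental comparisons. It was called above both parents in 10 of the 20 alternative settings.

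The shortened form cgr-miR-146b-5p_R-4 had 193, 178 and 202 in the hybrid, 70.4, 89.1 and 115 in P. vachelli and 170, 130 and 110 in P. fulvidraco. The hybrid was again highest in every library, with the parents overlapping. Its departure was 0.79 ± 0.19 on the log2 scale (limma, adjusted p = 0.0224) and 67.2% ± 14.8 on the linear scale (limma, adjusted p = 0.0205). Since it is a prefix of ccr-miR-146a, its reads may be trimmed copies of that sequence and it is no separate support. The other full-length member with this seed, dre-miR-146b_R+1, was not called, with 12527, 14950 and 18087 in the hybrid, 14314, 14525 and 13324 in P. vachelli and 16129, 24299 and 22735 in P. fulvidraco. Its departure was -0.18 on the log2 scale (limma, adjusted p = 0.395).

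dre-miR-204-5p, which in mammals lies in an intron of a TRPM channel gene and is known from eye and pancreatic islet, had the largest departure among the sequences called on both scales. It had 317, 292 and 245 in the hybrid, 196, 137 and 188 in P. vachelli and 18.6, 34.6 and 28.6 in P. fulvidraco. The hybrid was highest in every library and P. fulvidraco far below both. The hybrid mean of 285 ± 36.6 exceeded the mean of 174 ± 32.4 in P. vachelli and 27.3 ± 8.08 in P. fulvidraco (SD, n = 3 each), and equalled 141.9% of the sum of the 2 parental means. The departure was 2.05 ± 0.21 on the log2 scale (limma, adjusted p = 0.000302) and 184% ± 20.6 on the linear scale (limma, adjusted p = 0.00201). It differed from P. fulvidraco by 3.37 (limma, adjusted p = 7.54e-06) and from P. vachelli by 0.72 (limma, adjusted p = 0.0456) on the log2 scale. The P. vachelli difference was lost in 9 of the 20 alternative settings, with an adjusted p of 0.160 without P. vachelli replicate 2.

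Both miR-146a strands and dre-miR-204-5p were called above the mid-parent on both scales in all 20 settings. The remaining sequences above were lower in abundance or less stable. dre-miR-142a-3p_R-1, a marker of blood-forming cells, had 1055, 1309 and 1240 in the hybrid, 676, 741 and 734 in P. vachelli and 839, 1011 and 943 in P. fulvidraco. Every hybrid value exceeded every parental value. Its departure was 0.55 ± 0.11 on the log2 scale (limma, adjusted p = 0.0113) and 45.8% ± 9.56 on the linear scale (limma, adjusted p = 0.0193). The difference from P. fulvidraco alone, 0.37 on the log2 scale, did not pass (limma, adjusted p = 0.0774).

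aca-miR-184-3p, known from lens and corneal epithelium, had 42.6, 44.4 and 63.6 in the hybrid, 36.5, 37.7 and 29.7 in P. vachelli and 22.3, 15.8 and 23.1 in P. fulvidraco. The hybrid was highest in every library, but it was not above both parents by test. Its departure was 0.88 ± 0.21 on the log2 scale (limma, adjusted p = 0.0224) and 82.3% ± 20.6 on the linear scale (limma, adjusted p = 0.0336).

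dre-mir-451-p3 is the opposite arm of miR-451, an erythroid miRNA that Argonaute2 matures without Dicer. It had 532, 318 and 406 in the hybrid, 431, 461 and 445 in P. vachelli and 69.7, 67.2 and 44.3 in P. fulvidraco. The hybrid overlapped P. vachelli and was well above P. fulvidraco. Its departure was 1.32 ± 0.20 on the log2 scale (limma, adjusted p = 0.00245) and 65.5% ± 16.6 on the linear scale (limma, adjusted p = 0.0349). It did not differ from P. vachelli by test, with a difference of -0.12 on the log2 scale (limma, adjusted p = 0.699). The form that is 1 base longer, aca-miR-451-3p_L+2R+1, had 411, 312 and 331 in the hybrid, 484, 327 and 343 in P. vachelli and 46.5, 56.3 and 40.6 in P. fulvidraco. It was called on the log2 scale with a departure of 1.37 (limma, adjusted p = 0.000923) and missed on the linear scale at 62.6% (limma, adjusted p = 0.0556), so the pair sits at the threshold of the linear test.

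Below the mid-parent, the sequences were mostly abundant and the departures small. Log2 departures of the 20 ran from -0.27 to -0.99, the latter in dre-miR-202-5p_R+1, with a median of -0.36. Their median level was a normalized count of 14882, against 334 over all 278 sequences. The 7 sequences above had departures of 0.55 to 2.05, a median of 0.88 and a median level of 210. Of the 10 most abundant sequences, 5 were called below on both scales and 1 above. These levels and ranks use the value of 1 entry, which is a share of the reads for the 67 tested sequences on more than 1 entry.

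The let-7 family, which restrains proliferation and growth signalling and accumulates in differentiated tissues, gave 5 of the 20. ssa-let-7a-5p had 676046, 722643 and 774956 in the hybrid, 1024738, 981689 and 1092270 in P. vachelli and 845681, 798576 and 875851 in P. fulvidraco. All hybrid libraries lay below all parental libraries, and P. vachelli lay above P. fulvidraco. Its departure was -0.36 ± 0.06 on the log2 scale (limma, adjusted p = 0.00361) and -22.6% ± 3.73 on the linear scale (limma, adjusted p = 0.00887).

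ssa-let-7a-5p_2ss12GA16TA had 214341, 229607 and 210996 in the hybrid, 322287, 289897 and 312466 in P. vachelli and 247247, 261492 and 289162 in P. fulvidraco. It was lowest in every hybrid library. Its departure was -0.39 ± 0.07 on the log2 scale (limma, adjusted p = 0.00376) and -24.0% ± 4.29 on the linear scale (limma, adjusted p = 0.00933). It was below P. vachelli by -0.50 (limma, adjusted p = 0.000835) and below P. fulvidraco by -0.28 (limma, adjusted p = 0.0294) on the log2 scale.

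tni-let-7i had 706, 673 and 612 in the hybrid, 914, 924 and 854 in P. vachelli and 904, 908 and 965 in P. fulvidraco. The parents overlapped and the hybrid lay below both. Its departure was -0.46 ± 0.10 on the log2 scale (limma, adjusted p = 0.0123) and -27.2% ± 6.20 on the linear scale (limma, adjusted p = 0.0205). ccr-let-7j had 32569, 31825 and 30484 in the hybrid, 42025, 41414 and 43106 in P. vachelli and 34893, 36065 and 37097 in P. fulvidraco, again with no overlap of the hybrid with a parent. ccr-let-7j departed by -0.30 on the log2 scale (limma, adjusted p = 0.0113), and ssa-let-7a-5p_1ss12GT by -0.29 (limma, adjusted p = 0.0391).

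Across the family 18 sequences were tested, 10 with the seed GAGGTAG and 8 with another. Of the 10, 8 had a negative departure on both scales, 5 were called below on both, and their median log2 departure was -0.29. A further 2, ssa-let-7f-5p_1ss19TA and tni-let-7h, were called below on the log2 scale only, at -0.24 (limma, adjusted p = 0.0432) and -0.30 (limma, adjusted p = 0.0375). Of the rest, ola-let-7b_R+1 departed by -0.11 (limma, adjusted p = 0.503) and hsa-let-7d-5p by 0.77 (limma, adjusted p = 0.492) on the log2 scale, neither called, and dre-let-7d-5p was called above on the log2 scale only. The 8 let-7 sequences with another seed, mainly partner strands, had no call on either scale and a median of 0.03, from -0.23 to 0.49. The difference between these 2 sets was not tested.

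The miR-221 and miR-222 pair, made from a shared cluster and known for repressing KIT in endothelial cells and the cell cycle inhibitor p27 in mammals, gave 4 of the 20. bta-miR-221 had 5617, 5344 and 5785 in the hybrid, 10583, 10622 and 10228 in P. vachelli and 6269, 5703 and 6054 in P. fulvidraco. The hybrid overlapped P. fulvidraco, and P. vachelli stood apart from both. Its departure was -0.51 ± 0.08 on the log2 scale (limma, adjusted p = 0.00308) and -32.3% ± 4.76 on the linear scale (limma, adjusted p = 0.00465). The hybrid was below P. vachelli by -0.91 on the log2 scale (limma, adjusted p = 0.000154), and its difference from P. fulvidraco, -0.11, did not pass (limma, adjusted p = 0.479).

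dre-miR-222a-3p_R-1 had 6821, 6830 and 7364 in the hybrid, 14443, 14907 and 12082 in P. vachelli and 6675, 6353 and 7073 in P. fulvidraco, the same arrangement as bta-miR-221. Its departure was -0.45 ± 0.09 on the log2 scale (limma, adjusted p = 0.0113) and -31.7% ± 6.68 on the linear scale (limma, adjusted p = 0.0193). The partner strands moved the same way. dre-miR-222a-5p had 1312, 1235 and 1204 in the hybrid, 2938, 2726 and 2363 in P. vachelli and 1336, 1481 and 1592 in P. fulvidraco, with the hybrid below every parental library. It departed by -0.66 ± 0.11 on the log2 scale (limma, adjusted p = 0.00361) and -39.7% ± 7.17 on the linear scale (limma, adjusted p = 0.00933).

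ssa-miR-221-3p_R-1_1ss5AG had 305, 261 and 280 in the hybrid, 571, 615 and 467 in P. vachelli and 344, 381 and 421 in P. fulvidraco, and the 3 groups did not overlap. It departed by -0.70 ± 0.13 on the log2 scale (limma, adjusted p = 0.00677) and -39.6% ± 8.48 on the linear scale (limma, adjusted p = 0.0196). The other miR-222 sequences were not called. gga-miR-222b-3p_R-1, which carries the shared seed, departed by -0.10 (limma, adjusted p = 0.553) on the log2 scale. gga-miR-222b-5p_R-7, a form of dre-miR-222a-5p shorter by 4 bases, departed by -0.64 (limma, adjusted p = 0.202).

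ssa-miR-126-3p, the miRNA most typical of endothelial cells, had 210821, 217374 and 241891 in the hybrid, 388075, 350747 and 324527 in P. vachelli and 220727, 223018 and 252958 in P. fulvidraco. The hybrid overlapped P. fulvidraco and lay below P. vachelli in every library. Its departure was -0.36 ± 0.08 on the log2 scale (limma, adjusted p = 0.0123) and -23.9% ± 5.26 on the linear scale (limma, adjusted p = 0.0205). The difference from P. fulvidraco was -0.06 on the log2 scale (limma, adjusted p = 0.728).

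ola-miR-210-5p_R+2_1ss20TC is the partner strand of miR-210, which hypoxia-inducible factor induces in vertebrates. It had 3596, 3332 and 3103 in the hybrid, 5732, 5339 and 5376 in P. vachelli and 4730, 4103 and 4981 in P. fulvidraco. The hybrid lay below all parental libraries. Its departure was -0.59 ± 0.10 on the log2 scale (limma, adjusted p = 0.00362) and -33.7% ± 5.92 on the linear scale (limma, adjusted p = 0.00933). It was below P. vachelli by -0.71 (limma, adjusted p = 0.000901) and below P. fulvidraco by -0.46 (limma, adjusted p = 0.0175) on the log2 scale. It was called below both parents in 16 of the 20 alternative settings. The other tested miR-210 sequences had log2 departures of -0.22 and -0.14 and were called on neither scale.

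**Figure D3:**
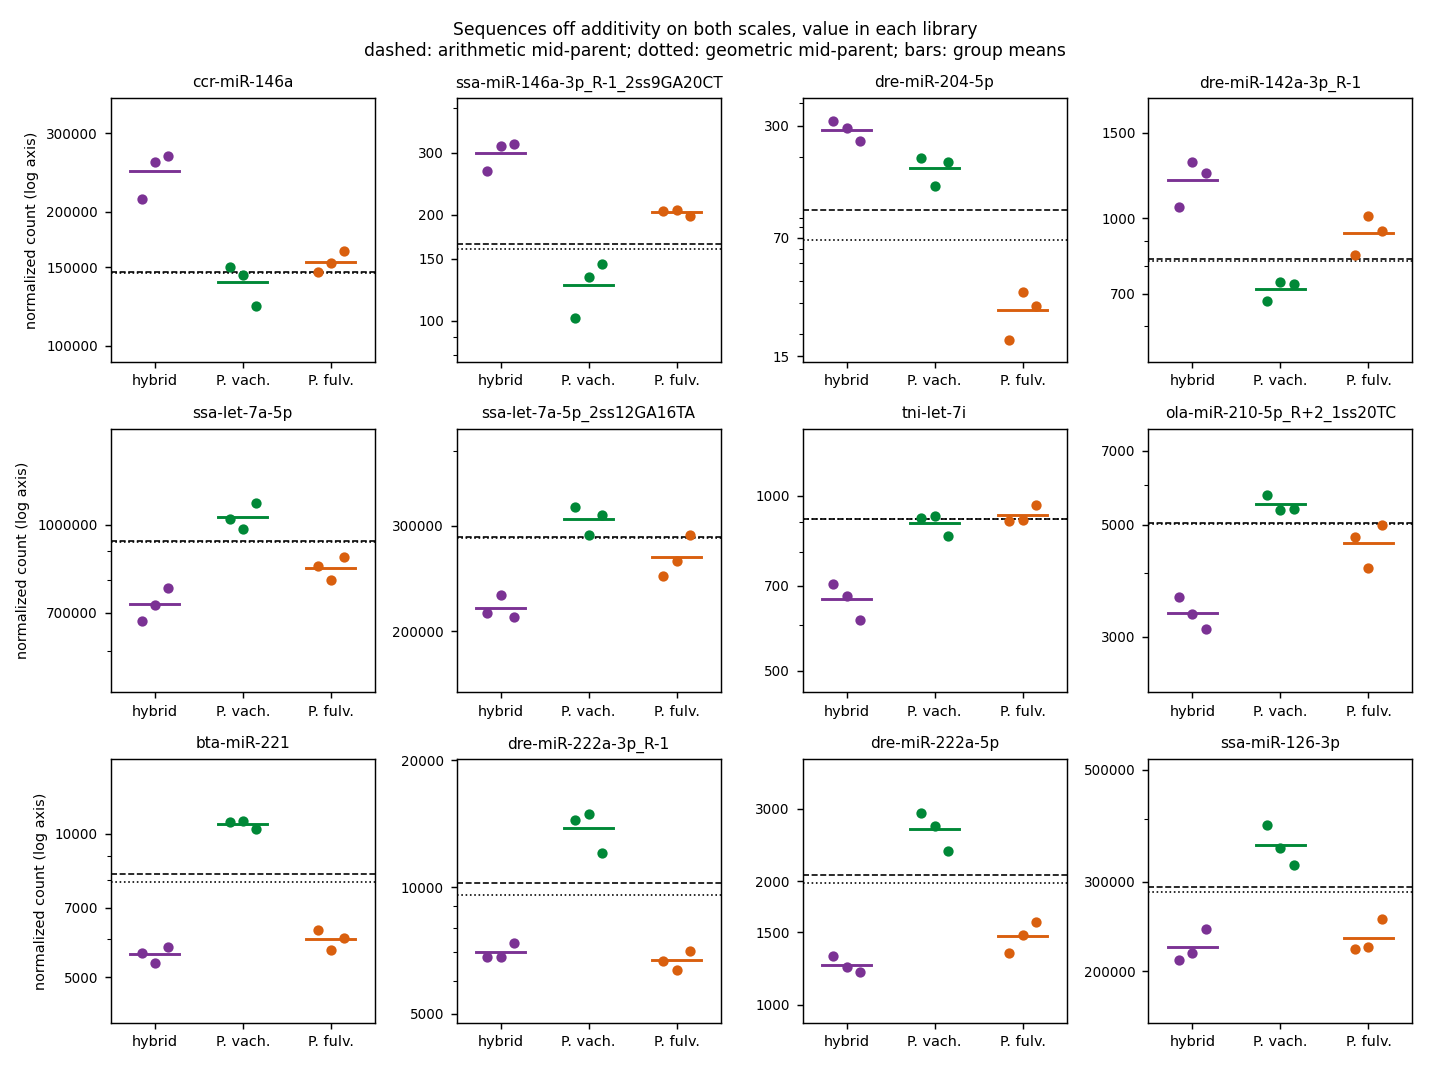
Normalized count in each library (log axis) for 12 sequences called on both scales, with hybrid, P. vachelli and P. fulvidraco from left to right, group means as bars, the arithmetic mid-parent dashed and the geometric mid-parent dotted. In ccr-miR-146a, tni-let-7i and ola-miR-210-5p_R+2_1ss20TC the hybrid is outside both parents, whereas in ssa-miR-126-3p and bta-miR-221 it sits beside P. fulvidraco.

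Hepatocyte and metabolic miRNAs were also among the 20. ssa-miR-122-5p, which in mammals supports cholesterol and fatty acid metabolism, had 1749957, 1776360 and 1873274 in the hybrid, 2486408, 2273583 and 2775938 in P. vachelli and 2052544, 1865924 and 2115422 in P. fulvidraco. The hybrid lay below every P. vachelli library and overlapped P. fulvidraco only through hybrid library 3 and P. fulvidraco library 2. Its departure was -0.32 ± 0.07 on the log2 scale (limma, adjusted p = 0.0113) and -20.4% ± 4.66 on the linear scale (limma, adjusted p = 0.0205).

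dre-miR-26a-5p, which in mouse liver affects insulin sensitivity, had 157336, 144504 and 157957 in the hybrid, 222383, 204879 and 219975 in P. vachelli and 177561, 169736 and 181788 in P. fulvidraco. The hybrid was below every parental library. Its departure was -0.35 ± 0.06 on the log2 scale (limma, adjusted p = 0.00367) and -21.8% ± 3.72 on the linear scale (limma, adjusted p = 0.00933). The difference from P. fulvidraco alone did not pass (limma, adjusted p = 0.0637).

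The next 5 sequences were named after their values were seen, to complete the account. ccr-miR-192_R+1, abundant in liver and gut, departed by -0.31 on the log2 scale (limma, adjusted p = 0.0362) and -23.3% on the linear scale. dre-miR-27b-3p_R-1, a regulator of lipid metabolism genes in mammals, departed by -0.33 (limma, adjusted p = 0.0278) and -23.2%. fru-miR-103, which in mouse lowers insulin sensitivity, departed by -0.27 (limma, adjusted p = 0.0277) and -19.2%. In these 3 the hybrid mean lay between the parents, close to P. fulvidraco. dre-miR-30e-3p departed by -0.31 (limma, adjusted p = 0.0278) and -19.4%, with the hybrid below every parental library. ssa-miR-92b-3p departed by -0.32 (limma, adjusted p = 0.0484) and -27.5%, with the hybrid above P. fulvidraco in every library and below P. vachelli.

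The largest proportional shortfalls were in low-abundance sequences that were high in P. vachelli alone. dre-miR-31_L+1 had 11.6, 14.8 and 8.09 in the hybrid, 71.5, 95.2 and 79.5 in P. vachelli and 8.37, 5.93 and 3.69 in P. fulvidraco. Hybrid values overlapped those of P. fulvidraco and lay far under P. vachelli. Outside P. vachelli only the hybrid values of 11.6 and 14.8 reached the minimum for entry, so its entry depended on the P. vachelli libraries. Its departures of -0.95 ± 0.28 on the log2 scale and -73.9% ± 13.5 on the linear scale are given as a description, with no test.

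dre-miR-202-5p_R+1, which in fish is known from the gonads, had 2.42, 1.97 and 2.31 in the hybrid, 31.2, 40.9 and 41.5 in P. vachelli and 0, 0 and 0.23 in P. fulvidraco. As listed, the hybrid and P. fulvidraco values are at or under what 3 reads amount to in a library. However, 0.23 is below the 0.924 that 1 read is estimated to be worth in P. fulvidraco library 3. The listed values are thus shares over more than 1 entry and understate the reads of dre-miR-202-5p_R+1. It entered the comparison through its P. vachelli libraries alone and so had to differ, and its departures of -0.99 on the log2 scale and -88.2% on the linear scale are given as a description, with no test. Without dre-miR-202-5p_R+1, 19 sequences in 13 families were called below on both scales, and these still include dre-miR-31_L+1.

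The number of calls in each direction depended on how libraries were scaled. The 7 sequences above were called under each scaling tried. These scalings raised the departures or left them almost unchanged, so this is no separate support for those 7. Relative to the mean of all libraries, the summed deposited values were 0.884 to 0.941 for the hybrid, 1.09 to 1.19 for P. vachelli and 0.888 to 0.972 for P. fulvidraco. When every library was set to the same total, 279 sequences met the minimum. Their median departure was 0.24, against 0.06 over 278 sequences as deposited. With equal totals 20 sequences were called on both scales, 19 above and 1 below, against 7 above and 20 below as deposited. Of the 27 sequences, 8 were called again, all 7 above and, of the 20 below, ssa-let-7a-5p alone, with a departure of -0.17 (limma, adjusted p = 0.0110). All 20 remained negative. With totals set equal after leaving out the most abundant sequence, the median over 280 sequences was 0.19. The split was then 15 above and 6 below, with 13 of the 27 called again. With median-ratio factors, which were 0.984 to 1.01 and so left the values nearly as deposited, all 27 were called again. Which scaling is right for these livers was not tested.

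**Figure D4:**
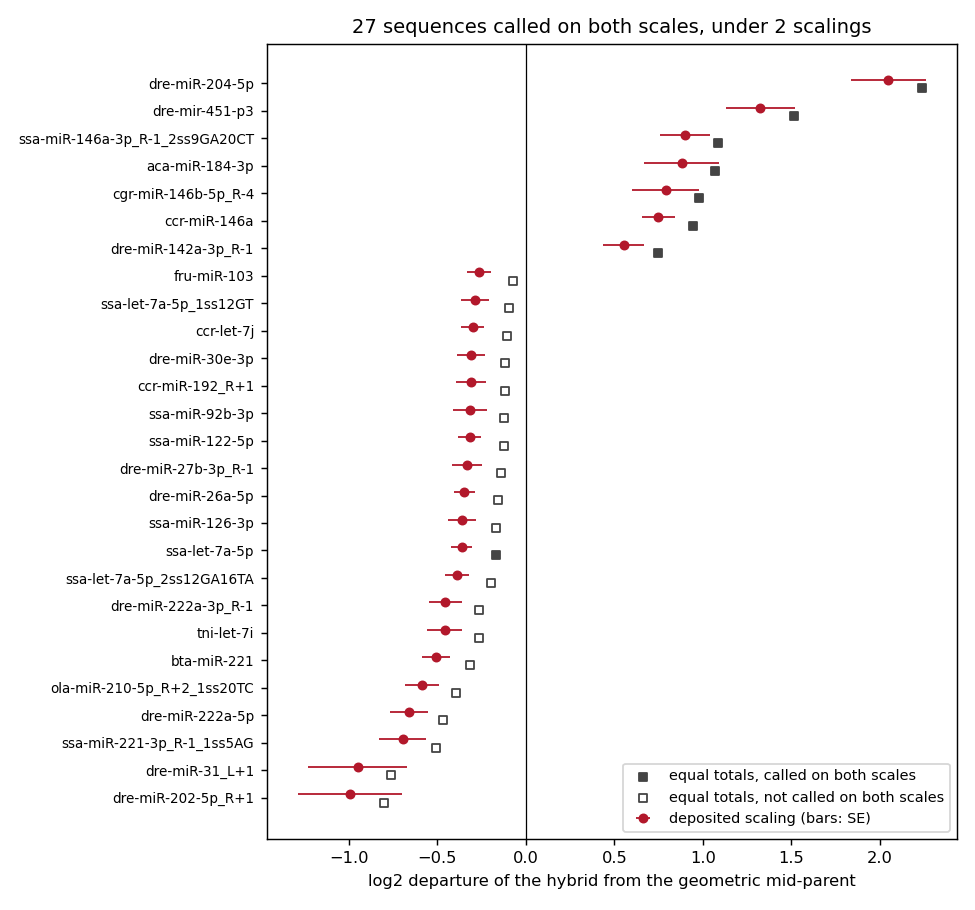
Departure of the hybrid from the geometric mid-parent (log2) for the 27 sequences called on both scales, as deposited (circles with SE bars) and with every library set to the same total (squares, filled where called on both scales). Equal totals raise all 27 departures. The 7 sequences above move away from 0 and keep their call, while the 20 below shift towards 0, with ssa-let-7a-5p alone still called.

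Among the 21 sequences above the geometric mid-parent only, 8 were predicted candidates without a family name. Such candidates were 16 of all 278 sequences and 0 of the 27 called on both scales. In 12 of the 16 the gap between the mid-parents exceeded 0.5 on the log2 scale. A hybrid at the arithmetic mid-parent then lies above the geometric one by construction, so the 8 are no separate result. PC-5p-555_7718 had the largest log2 departure of all. It had 1167, 1419 and 1278 in the hybrid, 2324, 3195 and 3229 in P. vachelli and 1.86, 1.98 and 0.92 in P. fulvidraco. The P. fulvidraco values lie under 3 reads, and all 3 hybrid values lay under the arithmetic mid-parent of 1459 and far above the geometric mid-parent of 84.6. Its departure was 3.91 ± 0.18 on the log2 scale (limma, adjusted p = 5.9e-07) but -11.7% ± 13.7 on the linear scale (limma, adjusted p = 0.568). The hybrid mean was 44.1% of the sum of the parental means, where the arithmetic mid-parent is by construction 50%. The log2 departure was 4.07 with a pseudocount of 0.5 and 2.82 with 10.

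A further 6 candidates were listed at 0 in every library of a parent, and all 6 were named after their values were seen. In 3 of them the hybrid lay between the parents and overlapped neither. PC-5p-3257_591 had 99.6, 69.0 and 64.8 in the hybrid, 272, 296 and 237 in P. vachelli and 0 in all 3 P. fulvidraco libraries, where 3 reads are worth 2.77 to 2.96. Hybrid values were 29.0% of the parental sum. Its departure against a P. fulvidraco level of 3 reads per library was at least 1.47 on the log2 scale, and it was -42.0% ± 13.0 on the linear scale (limma, adjusted p = 0.0709), so its sign differed between the scales.

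PC-5p-17897_142 had 27.1, 38.4 and 34.7 in the hybrid, 64.5, 88.0 and 58.1 in P. vachelli and 0 in P. fulvidraco. Its hybrid mean was 47.6% of the parental sum, and the linear departure was -4.85% ± 21.0 (limma, adjusted p = 0.879). PC-5p-30865_77 showed the reverse, with 10.6, 10.8 and 15.03 in the hybrid, 0 in P. vachelli and 28.8, 27.7 and 33.2 in P. fulvidraco. Its hybrid mean was 40.7% of the parental sum, and the linear departure was -18.6% ± 18.6 (limma, adjusted p = 0.494). The other 3, all at 0 in P. fulvidraco, overlapped P. vachelli.

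PC-3p-46979_41 had 16.9, 9.86 and 13.9 in the hybrid, against 17.2, 11.7 and 7.12 in P. vachelli. Its hybrid mean was 113% of the parental sum. With P. fulvidraco at 0 the geometric mid-parent depended on the pseudocount, and a hybrid near the P. vachelli level lay above it by construction. The log2 call of PC-3p-46979_41 is therefore a description, with no test. Its departure against a P. fulvidraco level of 3 reads per library was at least 1.23 on the log2 scale. It was not called on the linear scale (limma, adjusted p = 0.0907). PC-5p-5068_398 had 58.5, 62.1 and 2.31 in the hybrid, against 28.5, 26.0 and 48.6 in P. vachelli, with a hybrid mean of 119% of the parental sum and no call on either scale. PC-3p-23565_106 had 2.42, 27.6 and 20.2 in the hybrid, against 31.2, 52.5 and 30.2 in P. vachelli, with a hybrid mean of 44.1% of the parental sum and no call on either scale. PC-5p-5068_398 and PC-3p-23565_106 each had 1 hybrid library far below the others.

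In other log2-only calls the libraries of a group were uneven. aca-miR-125a-5p, a relative of the worm timing miRNA lin-4, had 5417, 10711 and 15341 in the hybrid, 737, 568 and 574 in P. vachelli and 20024, 6550 and 6554 in P. fulvidraco. The hybrid overlapped P. fulvidraco, whose first library was far above its others, and P. vachelli was below both. Its departure was 1.98 ± 0.40 on the log2 scale (limma, adjusted p = 0.0113) and 79.8% ± 52.2 on the linear scale (limma, adjusted p = 0.309). Without P. fulvidraco replicate 1 it was called on both scales, at 2.25 on the log2 scale (limma, adjusted p = 0.00177) and with an adjusted p of 0.0387 on the linear scale.

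dre-let-7d-5p had the same profile, with 1452, 2742 and 3598 in the hybrid, 386, 365 and 377 in P. vachelli and 5575, 2101 and 2130 in P. fulvidraco. P. fulvidraco library 1 was again highest. Its departure was 1.21 ± 0.35 on the log2 scale (limma, adjusted p = 0.0410) and 42.5% ± 41.3 on the linear scale (limma, adjusted p = 0.486).

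Of 6 striated muscle sequences tested, 3 were called, all on the log2 scale only. The miR-206 and miR-499 sequences had log2 departures of -0.36 and -0.33 and were not called. aca-miR-1a-3p, the defining miRNA of skeletal and heart muscle, had 427, 495 and 859 in the hybrid, 190, 181 and 122 in P. vachelli and 519, 570 and 742 in P. fulvidraco. The hybrid overlapped P. fulvidraco, and hybrid library 3 was highest. It departed by 0.86 on the log2 scale (limma, adjusted p = 0.0400) and 53.3% on the linear scale (limma, adjusted p = 0.157). aca-miR-133a_L-1R+1 departed by 0.94 (limma, adjusted p = 0.0404), with 302, 344 and 774 in the hybrid, 130, 144 and 153 in P. vachelli and 383, 304 and 383 in P. fulvidraco.

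Hybrid library 3 was likewise highest for dre-miR-193b-3p, with 150, 171 and 385 in the hybrid, 91.4, 122 and 107 in P. vachelli and 86.5, 94.9 and 110 in P. fulvidraco. All hybrid values exceeded all parental values, and it was the fourth sequence above both parents by test. Its departure was 1.08 ± 0.28 on the log2 scale (limma, adjusted p = 0.0281) and 131% ± 43.7 on the linear scale (limma, adjusted p = 0.0863). Without hybrid replicate 3 it was called on both scales.

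**Figure D5:**
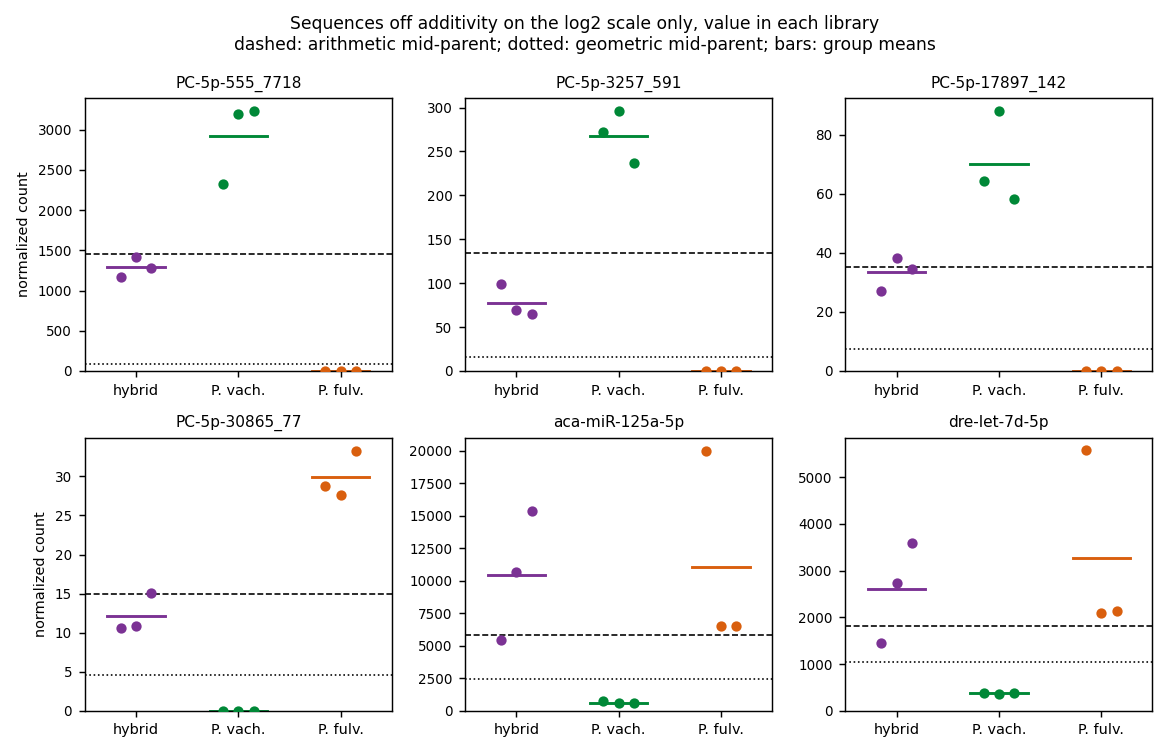
Normalized count in each library (linear axis from 0) for 6 sequences called on the log2 scale only, with hybrid, P. vachelli and P. fulvidraco from left to right, group means as bars, the arithmetic mid-parent dashed and the geometric mid-parent dotted. PC-5p-555_7718, PC-5p-17897_142 and PC-5p-30865_77 have hybrid means far above the dotted line and at or under the dashed line, and aca-miR-125a-5p and dre-let-7d-5p have 1 high P. fulvidraco library.

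The remaining log2-only calls above included dre-miR-34a, a p53 target in mammals, at 0.60 (limma, adjusted p = 0.0353), ola-miR-99_R+1_1ss10CT at 1.46 (limma, adjusted p = 0.0239) and ssa-miR-730a-3p at 1.25 (limma, adjusted p = 0.0362). In 13 of the 21 all 3 hybrid libraries were above the arithmetic mid-parent as well, though the linear test did not pass. Below the geometric mid-parent only, besides the let-7 forms, were fru-miR-16 at -0.25 (limma, adjusted p = 0.0494) and aca-miR-9-1-3p_R+2 at -1.13 (limma, adjusted p = 0.0395).

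The single linear-only call, tni-miR-22a, is an abundant liver miRNA. It had 207607, 211877 and 180206 in the hybrid, 355884, 322775 and 334077 in P. vachelli and 172922, 138225 and 190880 in P. fulvidraco. Hybrid and P. fulvidraco overlapped, both below P. vachelli. It departed by -20.8% ± 5.47 on the linear scale (limma, adjusted p = 0.0401) and by -0.25 on the log2 scale (limma, adjusted p = 0.115). Of the 10 most abundant sequences, cgr-miR-100-5p_R+1, fru-miR-21 and dre-miR-199-5p were called on neither scale, with departures of 0.20 (limma, adjusted p = 0.107), 0.19 (limma, adjusted p = 0.151) and 0.07 (limma, adjusted p = 0.679).

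The calls on both scales were also counted by tissue and pathway list, to be read against the 2.52% above and 7.19% below over all 278 sequences. Counts of positive and negative log2 departures are to be read against 152 positive and 126 negative of the 278. In the leukocyte list (miR-142, miR-146, miR-150, miR-155, miR-181 and miR-223) 4 of 15 were above and none below, 9 of 15 were positive, and the median log2 departure was 0.04. Of these 4, 3 were miR-146 forms, while both miR-150 and both miR-223 sequences had negative departures and were not called. In the endothelial list (miR-126, miR-221 and miR-222) 5 of 11 were below and 10 of 11 were negative, with a median of -0.43. The summed endothelial level was 246771 to 279594 for the hybrid, 388291 to 455838 for P. vachelli and 257962 to 290432 for P. fulvidraco, with the hybrid under every P. vachelli library and overlapping P. fulvidraco. The let-7 list had 5 of 18 below and a median of -0.12.

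In the list of lipid and cholesterol miRNAs 4 of 30 were below, with a median of -0.26, and in the liver list 2 of 14, with a median of -0.19, where 7.19% of all sequences were below. In the stress and hypoxia list 2 of 10 were below, but 6 of 10 were positive and the median was 0.16. These 2 include dre-miR-31_L+1, which would not have entered without its P. vachelli libraries. In the cell cycle list 1 of 29 was below, 20 of 29 were positive and the median was 0.09. All 10 erythroid sequences were positive, against 152 of all 278, with a median of 0.50. Of the 10, 1 was called on both scales and 2 on the log2 scale. These 2 were dre-mir-451-p3 and its form longer by 1 base, from the same arm. On the log2 scale 10.1% of all 278 sequences were called above, and the muscle list below is to be read against that share too. The summed erythroid level was 73055 to 120864 for the hybrid, 45983 to 51020 for P. vachelli and 99542 to 118707 for P. fulvidraco. dre-mir-451-p3 and its longer form were higher in P. vachelli than in P. fulvidraco, the reverse of this sum. The part of blood cells in the results was not tested. In the muscle list 3 of 6 were called above on the log2 scale and 4 of 6 were positive, with a median of 0.49. Its negative members were the miR-206 and miR-499 sequences. The summed muscle level was 1570 to 3414 for the hybrid, 821 to 884 for P. vachelli and 1811 to 2365 for P. fulvidraco.

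No sequence was called on both scales among the 8 of miR-99, miR-100 and miR-125, 14 of smooth muscle and mesenchyme, 11 neural, 7 pancreatic, 6 epithelial, 6 muscle, 3 Hox-embedded and 1 sensory. None of the early embryo list was tested. Pancreatic miRNAs had a median log2 departure of 0.61, with summed levels of 10508 to 19067 for the hybrid, 6376 to 13168 for P. vachelli and 9507 to 16680 for P. fulvidraco.

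How the calls rest on single libraries was set out for the 27 sequences. Only 5 were called on both scales whichever of the 9 libraries was left out, namely ccr-miR-146a, ssa-miR-146a-3p_R-1_2ss9GA20CT, dre-miR-204-5p, ssa-let-7a-5p_2ss12GA16TA and bta-miR-221. Leaving out hybrid library 2 had the largest effect, with 6 sequences called on both scales. It alone ended the calls of ssa-let-7a-5p, dre-miR-26a-5p, ola-miR-210-5p_R+2_1ss20TC, dre-miR-222a-5p, ssa-miR-221-3p_R-1_1ss5AG and dre-miR-142a-3p_R-1. Without it the larger of the 2 adjusted p-values (limma) was 0.0516 for ssa-let-7a-5p, 0.0591 for dre-miR-26a-5p, 0.0540 for ola-miR-210-5p_R+2_1ss20TC, 0.0582 for dre-miR-222a-5p, 0.0911 for ssa-miR-221-3p_R-1_1ss5AG and 0.0823 for dre-miR-142a-3p_R-1. Hybrid library 1 or 2 ended those of ssa-miR-126-3p and dre-miR-222a-3p_R-1, hybrid library 2 or 3 that of ccr-let-7j, and either of hybrid libraries 1 and 2 or P. fulvidraco library 3 that of ssa-miR-122-5p. Without hybrid library 2 the larger adjusted p (limma) was 0.0911 for ssa-miR-126-3p, 0.0823 for dre-miR-222a-3p_R-1 and ccr-let-7j and 0.0934 for ssa-miR-122-5p.

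The other 12 calls were lost with 4 or more of the libraries. They were kept with 5 of 9 libraries left out in turn for tni-let-7i and cgr-miR-146b-5p_R-4, 4 of 9 for ccr-miR-192_R+1, dre-miR-27b-3p_R-1 and fru-miR-103, 3 of 9 for aca-miR-184-3p and 2 of 9 for dre-mir-451-p3 and dre-miR-30e-3p. They were kept with 1 of 9 for ssa-let-7a-5p_1ss12GT and dre-miR-31_L+1, and with none for ssa-miR-92b-3p and dre-miR-202-5p_R+1. dre-miR-202-5p_R+1 could be tested in 6 of the 9. Their highest adjusted p-values (limma) ran from 0.0641 for cgr-miR-146b-5p_R-4 to 0.178 for dre-miR-30e-3p, and no departure among the 27 changed sign. At the entry threshold, ola-miR-7_R-1_1ss23TA was just inside with a third-highest value of 10.2 and ssa-miR-153a-2-5p_L+1_2ss6CT13AG just outside with 9.86. Of the 278 sequences, 217 reached 10 in every library and 4 reached it in libraries of a single line, and 25 of the 27 called on both scales reached it in every library.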

How the data were processed

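The deposited table holds normalized counts per miRNA entry for each library, a signal that the authors scaled so that values are not whole, and the formula is not given in the sources used here. Per the labels' protocols, small RNA libraries came from a TruSeq kit, were read on an Illumina HiSeq, and were filtered with ACGT101-miR against adapter dimers, other RNA families and repeats. No aligner or build is named there. Of 888 entries, 728 were distinct sequences. The 153 sequences on more than 1 entry held like values on each, and the first entry was kept, so such values are shares of the reads. The levels and abundance ranks of tested sequences use these values. Sequences with 10 or more in at least 3 libraries were tested. limma 3.58.1 in R 4.3.3, with a trended prior, was fitted to log2(value + 1) and, for the linear scale, to each value divided by the sequence's mean, over all 9 libraries with group means only. Tests were two-sided and adjusted by Benjamini-Hochberg over all 278 sequences. Too few values came out as whole reads, so no count test was run. Read totals are estimates for the deposited entries, from the step between values below 40. The fits were tried on simulated data with planted 2-fold departures. These are larger than all departures called below on both scales and most of those called above, and smaller ones were not simulated. Members, families and lists were chosen with earlier results of these data known. Named sequences were, per direction, the 10 largest log2 departures at or above the median level and the 5 most abundant among those called on both scales, those outside both parents, all members of families with 2 or more calls, the 5 largest called on 1 scale only, and the 10 most abundant overall. Others were named after their values were seen. Alternatives were other scalings, filters, pseudocounts, summed entries, summed family arms, no trend, a delta-method linear test, a replicate block and each library left out. Replicate numbers are from the titles.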

Additional observations from a re-analysis of the deposited data

How the results depend on the processing

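As deposited, 52 sequences were called on the log2 scale, 28 on the linear scale and 27 on both. Of the 27, 6 lay outside both parents by test, and 19 families had a call on both scales. The 27 include dre-miR-202-5p_R+1 and dre-miR-31_L+1, whose entry depended on the P. vachelli libraries. Without the filter on low values these counts were 21, 12, 10, 2 and 7. Without the trended prior 13 were called on the linear scale and 13 on both, in 10 families. Requiring a 1.5-fold departure left 31 on the log2 scale, 11 on the linear scale and 11 on both, in 9 families. With the replicate number as a block the counts were 30, 12, 11, 3 and 9, but the numbers showed no clear pairing in the data. The deviations of same-numbered libraries, rather than their values, correlated at -0.42 to 0.16. Of the 9 libraries, 1 correlated best with its own number. Leaving out each library gave 18 to 58 on the log2 scale, 6 to 35 on the linear scale, 6 to 30 on both, 1 to 10 outside both parents and 5 to 21 families. Without hybrid replicate 2 the counts were 18, 6, 6, 2 and 5, without P. vachelli replicate 2 they were 29, 24, 16, 3 and 10, and without P. fulvidraco replicate 3 they were 32, 18, 17, 1 and 11. Without hybrid replicate 3, 10 were outside both parents. Without P. fulvidraco replicate 2, 28 were called on the log2 scale, in 12 families on both, and without P. vachelli replicate 3 there were 12 families. With equal totals the log2 calls were 64 (56 above and 8 below, against 28 and 24 as deposited), the linear calls 22 (19 and 3, against 7 and 21), and without the most abundant sequence 52 (42 and 10) and 23 (15 and 8). Pseudocounts of 0.5 and 10, a minimum mean of 100, summed entries, summed family arms and the delta method kept every one of these counts within 1.5 times. So did median ratios, which left the values nearly as deposited. The signs that reversed were all of sequences that were not called. With equal totals these departures were 0.14 for ssa-let-7f-3p_1ss22CT, 0.056 for ssa-let-7a-4-3p, 0.0080 for dre-miR-146b_R+1, 0.10 for gga-miR-222b-3p_R-1, 0.079 for ola-let-7b_R+1 and 0.11 for oan-let-7e-3p. Without the most abundant sequence as well, ssa-let-7f-3p_1ss22CT was at 0.093, ssa-let-7a-4-3p at 0.0032, gga-miR-222b-3p_R-1 at 0.043, ola-let-7b_R+1 at 0.026 and oan-let-7e-3p at 0.054. With libraries left out, ssa-let-7f-3p_1ss22CT ran from -0.16 to 0.18, ola-let-7b_R+1 from -0.18 to 0.0053, oan-let-7e-3p from -0.18 to 0.019, ssa-let-7i-2-3p_2ss9GT22CT from -0.10 to 0.37 and dre-miR-199-5p from -0.011 to 0.20. The cause of these changes was not tested. Fits with a library left out also have fewer degrees of freedom. Sequences near 3 reads per library are limited by depth, and the read totals behind that limit are estimates that cover counting error only.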
